A study of Homo sapiens with 4 samples.

Results

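The expression of 60 cell cycle and DNA replication genes was examined in CD31+ cells, out of 58229 genes in the deposited table. The members were taken by gene symbol, each symbol had a row, and they were sorted by role into 8 G1 cyclins and cyclin-dependent kinases (CDKs), 7 CDK inhibitors, 5 genes of the RB and E2F families, 16 DNA replication genes and 24 genes of mitosis. H1 human embryonic stem cells, a widely used line, were differentiated toward blood, and their CD31+ progeny was collected at day 8. All cultures received activin A and BMP4, followed by VEGF and bFGF. The groups were Control (2 libraries) and HAND1_OE (2 libraries), the latter with overexpression of HAND1, a transcription factor, and the question was which cell cycle genes differed between them. The study's scheme marks culture with and without doxycycline in the last days before collection, but the construct that drove HAND1, whether the Control cells carried it, and whether the line was a single clone are not given in the sources used here.

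A dividing cell passes through G1, copies its DNA in S phase and separates the copies in mitosis. In G1 the D cyclins with CDK4 and CDK6, and later cyclin E with CDK2, phosphorylate RB, which then releases E2F factors to switch on the genes of DNA replication, while INK4 and CIP/KIP proteins inhibit these kinases. Blood progenitors of the red cell lineage divide rapidly, and mature endothelium divides little.

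FPKM was taken as the unit of the table, which scales fragments by transcript length and by library size, so levels of different genes are comparable per length. HAND1 (chromosome 5, 154474972 to 154478264, GRCh38) was at 12.1 and 14.3 FPKM in Control and 520 and 517 FPKM in HAND1_OE, as the labels state. At least 1 FPKM was reached by 13989 to 14542 genes per library, and the relative depth, read from the spacing of values in single-exon genes, was 0.979 to 1.18 times that of Control replicate 1. The endothelial markers of the CD31+ gate were present in all libraries, with a summed level of 1221 to 1381 FPKM over 8 genes in Control and 1332 to 1458 FPKM in HAND1_OE. CD45 (PTPRC), which defines later blood cells, was at 0 to 0.0227 FPKM. Blood markers were lower in HAND1_OE. All 9 erythroid markers lay lower in both HAND1_OE libraries, and 8 of them were called. Their summed level was 425 to 675 FPKM in Control and 34.0 to 40.2 FPKM in HAND1_OE. The 4 megakaryocyte markers summed to 109 to 135 and 7.19 to 12.0 FPKM, and 6 pan-hematopoietic markers to 73.5 to 97.6 and 16.2 to 22.5 FPKM. The 7 mesenchyme markers summed to 207 to 277 FPKM in Control and 400 to 493 FPKM in HAND1_OE, a sum in which COL3A1 was the highest gene, with 3 of them called higher, 2 more higher and COL1A1 lower in both HAND1_OE libraries without passing. All 5 pluripotency markers lay lower in both HAND1_OE libraries, with 0 called and sums of 63.2 to 70.6 and 33.1 to 45.3 FPKM, and of the endothelial markers VWF was called higher. In bulk RNA fewer cells of a type and less RNA per cell cannot be told apart, and the part of this change in cell markers in the results below was not tested.

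Promoter motifs, which do not depend on expression values, differed in frequency between the replication genes and the mitosis genes. The E2F motif (TTTGGCGC, TTTCGCGC, TTTCCCGC or TTTGCCGC) is bound by E2F factors in G1 and S phase, and the CHR motif (TTTGAA or TTCGAA) is known from genes switched on in G2 and mitosis, often beside a CCAAT box (CCAAT) bound by NF-Y. Windows of 250 bases before to 50 bases after the RefSeq start (GRCh38.p14) were searched on both strands, with the first listed window of a gene, and 48 of the 60 members had one. The E2F motif was held by 11 of 14 replication promoters (78.6%), 4 of 5 RB and E2F promoters and 3 of 19 mitosis promoters (15.8%), against 3.33% of 27305 promoters. The CHR motif was held by 13 of 19 mitosis promoters (68.4%) and 2 of 14 replication promoters (14.3%), against 16.6% of all promoters. A CCAAT box stood in 17 of 19 mitosis promoters (89.5%) and 10 of 14 replication promoters (71.4%), against 35.7% of all. None of the 10 promoters of G1 cyclins, kinases and inhibitors that were searched held the E2F or CHR motif. A match describes letters in a window and is not a bound site.

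Examples of both classes are given below as the 160 bases before the RefSeq start, 5′ to 3′ on the strand of the gene. In MCM6 (chr2:135876444-135876603, minus strand), CDT1 (chr16:88803629-88803788, plus strand) and E2F1 (chr20:33686386-33686545, minus strand), capitals mark only the E2F motif, on either strand. In MCM6 the forward and reverse matches overlap each other.
MCM6: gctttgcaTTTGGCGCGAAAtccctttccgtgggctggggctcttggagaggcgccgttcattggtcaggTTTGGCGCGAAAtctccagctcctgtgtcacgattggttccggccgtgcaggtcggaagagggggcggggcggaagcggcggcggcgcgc
CDT1: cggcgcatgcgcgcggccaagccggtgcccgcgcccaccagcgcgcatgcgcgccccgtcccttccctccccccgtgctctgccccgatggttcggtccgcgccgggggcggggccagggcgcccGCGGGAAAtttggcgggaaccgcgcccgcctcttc
E2F1: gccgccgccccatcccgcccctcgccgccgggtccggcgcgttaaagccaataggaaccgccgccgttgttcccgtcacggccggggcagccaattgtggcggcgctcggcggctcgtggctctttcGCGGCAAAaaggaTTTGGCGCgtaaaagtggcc

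In CCNB2 (chr15:59104986-59105145), PLK1 (chr16:23678729-23678888) and CDC20 (chr1:43358821-43358980), all on the plus strand, capitals mark CHR motifs and CCAAT boxes.
CCNB2: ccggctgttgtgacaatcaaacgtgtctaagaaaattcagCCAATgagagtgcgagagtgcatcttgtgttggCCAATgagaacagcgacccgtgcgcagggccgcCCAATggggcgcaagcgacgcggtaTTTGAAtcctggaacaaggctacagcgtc
PLK1: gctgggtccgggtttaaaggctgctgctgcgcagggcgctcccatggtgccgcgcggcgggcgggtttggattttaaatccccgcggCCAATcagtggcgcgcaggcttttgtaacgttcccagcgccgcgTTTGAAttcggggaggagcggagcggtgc
CDC20: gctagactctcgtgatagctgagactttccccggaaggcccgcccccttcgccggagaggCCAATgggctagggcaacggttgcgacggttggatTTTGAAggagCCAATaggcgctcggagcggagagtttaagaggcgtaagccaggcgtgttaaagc

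The members were then compared between HAND1_OE and Control. Of the 60, 57 reached 1 FPKM in at least 2 libraries and were tested, and CCND1 was called higher and CCND3 lower (limma, adjusted p under 0.05 after correction over the whole table). Of 14622 genes tested, 4.16% were called, 2.04% higher and 2.11% lower. An unadjusted p under 0.05 was reached by 1 member that was higher and 12 that were lower, where 6.82% and 10.6% of all genes tested reached it. Both HAND1_OE libraries lay below both Control libraries in 26 of the 60 members and above both in 9. Among the 57 tested members these counts were 26 and 7. Of all genes tested 30.1% lay lower and 16.2% higher, 46.3% in either direction. The log2 fold change, the difference in mean log2(FPKM + 1), had a median of -0.11 over the members and -0.078 over all genes tested. The role groups differed in this respect, and DNA replication genes held 14 of the 26 that lay lower.

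**Figure D1:**
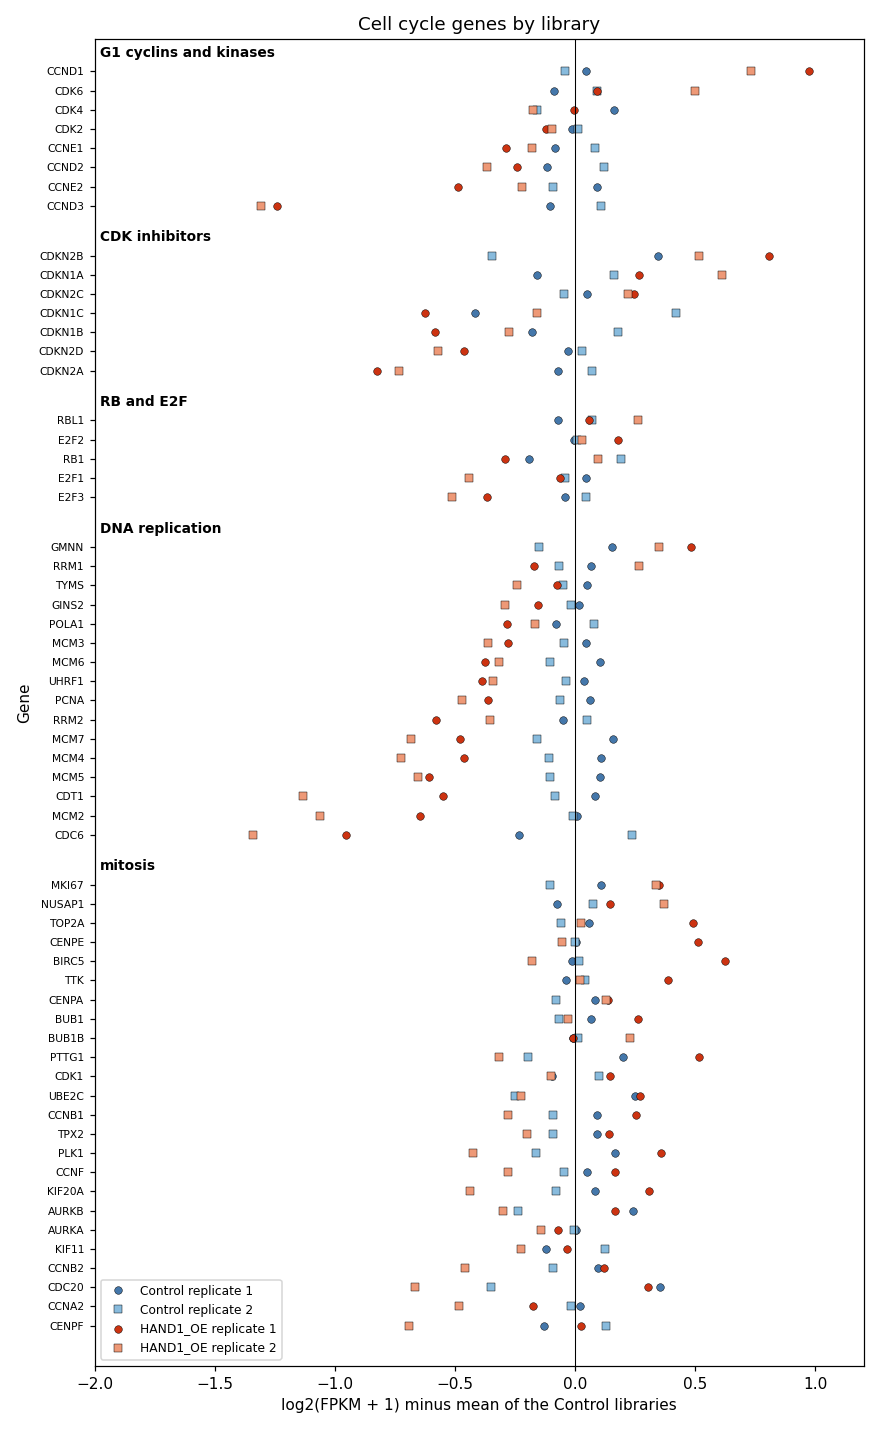
Each point is the log2(FPKM + 1) of a gene in a library minus the mean of the Control libraries, for all 60 genes sorted by role (Control in blue, HAND1_OE in red; circles are replicate 1 and squares replicate 2). In 14 of 16 DNA replication genes both HAND1_OE points lie left of both Control points, while 19 of 24 mitosis genes have overlapping groups.

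The D cyclins changed in opposite directions. Cyclin D1 (CCND1, ENSG00000110092.3, chromosome 11, 69641087 to 69654474), which many growth signals induce, was at 23.4 and 22.0 FPKM in Control and 45.5 and 38.3 FPKM in HAND1_OE. Both HAND1_OE libraries were above both Control libraries, and the log2 fold change was 0.85 (standard error 0.157, 95% interval 0.46 to 1.24, adjusted p = 0.0491). This call lies at the edge of the threshold and depended on the settings. Its adjusted p was 0.0545 with a pseudocount of 0.1, 0.183 with no filter on low values and 0.0360 after quantile normalization. With a library left out, its log2 fold change ran from 0.73 to 0.97. Cyclin D3 (CCND3, ENSG00000112576.12, chromosome 6, 41934933 to 42050357), the D cyclin best known from blood cells, was at 55.2 and 64.1 FPKM in Control and 24.6 and 23.4 FPKM in HAND1_OE. It fell in both libraries, by 1.28 on the log2 scale (standard error 0.151, 95% interval -1.65 to -0.90, adjusted p = 0.0165), and the mean FPKM of Control was 2.49 times that of HAND1_OE. Cyclin D2 (CCND2) was at 14.8 and 17.6 FPKM in Control and 13.5 and 12.3 FPKM in HAND1_OE (-0.30 on the log2 scale, adjusted p = 0.438), and it did not pass.

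The balance of the D cyclins turned over within each library. CCND3 made up 59.1% and 61.8% of their summed FPKM in Control and 29.4% and 31.7% in HAND1_OE, and CCND1 made up 25.1% and 21.2% against 54.4% and 51.7%. The ratio of CCND1 to CCND3 was 0.383 ± 0.0576 in Control and 1.74 ± 0.154 in HAND1_OE (SD, n = 2). The summed level of the D cyclins was 93.5 and 103.7 FPKM in Control and 83.6 and 74.0 FPKM in HAND1_OE, so it moved less than CCND3 alone. These quantities were formed after the values of their genes were seen and are given with no test. Both genes share exon bases with another annotated gene (LTO1 for CCND1 and AL513008.1 for CCND3), and CCND3 has 2 annotated pseudogenes named for it, so reads could be divided between them.

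None of the kinases and E cyclins of G1 passed. CDK6, the D cyclin partner prominent in blood cells, was at 4.79 and 5.56 FPKM in Control and 5.56 and 7.72 FPKM in HAND1_OE. CDK4 was at 74.3 and 59.4 FPKM in Control and 66.2 and 58.6 FPKM in HAND1_OE, so its groups overlapped and it was the most abundant gene of these 8 in Control by mean level. CDK2 was at 34.1 and 34.7 FPKM in Control and 31.6 and 32.1 FPKM in HAND1_OE. The log2 fold changes of CDK6, CDK4 and CDK2 were 0.29, -0.090 and -0.11. Cyclin E1 (CCNE1), which drives entry into S phase with CDK2, was at 3.89 and 4.49 FPKM in Control and 3.24 and 3.57 FPKM in HAND1_OE (log2 fold change -0.24, adjusted p = 0.603). CCNE2 was at 1.36 and 1.08 FPKM in Control and 0.581 and 0.900 FPKM in HAND1_OE (-0.35, adjusted p = 0.520). Both E cyclins were lower in both HAND1_OE libraries, and the 95% interval of CCNE2 ran from -0.92 to 0.21. The median log2 fold change of this group of 8 was -0.17, and it was -0.090 after median-ratio scaling.

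CDK inhibitors differed among themselves, and 0 of the 6 tested were called. Of these inhibitors 2 had an unadjusted p under 0.05, both lower, where 10.6% of all genes tested were lower at that level. The most abundant was CDKN1A (p21), the target of p53 that arrests cells in G1, at 101 and 126 FPKM in Control and 136 and 172 FPKM in HAND1_OE. Its groups did not overlap, and its log2 fold change of 0.44 had a 95% interval of -0.053 to 0.93 (adjusted p = 0.346). CDKN1B (p27) was at 21.3 and 27.6 FPKM in Control and 15.8 and 19.9 FPKM in HAND1_OE (-0.43, adjusted p = 0.358). CDKN1C (p57), an imprinted gene, was at 28.0 and 50.9 FPKM in Control and 24.2 and 33.8 FPKM in HAND1_OE. The Control libraries of CDKN1C differed more from each other than the group means did, and without Control replicate 2 its log2 fold change of -0.39 became 0.028.

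The INK4 inhibitors, which block CDK4 and CDK6, were the lowest members of this group. CDKN2A, whose value does not separate its p16 and ARF transcripts, was at 2.37 and 2.73 FPKM in Control and 0.999 and 1.13 FPKM in HAND1_OE (log2 fold change -0.78, 95% interval -1.27 to -0.29, adjusted p = 0.109). Its neighbour CDKN2B (p15), a gene that TGF-beta induces in many cells, was at 1.11 and 0.306 FPKM in Control and 1.90 and 1.37 FPKM in HAND1_OE (0.66, adjusted p = 0.352). CDKN2D (p19) was at 7.99 and 8.37 FPKM in Control and 5.66 and 5.19 FPKM in HAND1_OE (-0.52, adjusted p = 0.182). CDKN2C (p18) did not pass the filter, at 0.426 and 0.333 FPKM in Control and 0.635 and 0.607 FPKM in HAND1_OE. Thus CDKN2A and CDKN2D lay lower and CDKN2B and CDKN2C higher in both HAND1_OE libraries. The exons of CDKN2A overlap those of the antisense gene CDKN2B-AS1, and the library kit as named in the labels does not show that strand was kept. Over all 7 inhibitors the median log2 fold change was -0.39, but without Control replicate 2 it was 0.028 and without HAND1_OE replicate 1 it was -0.16.

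**Figure D2:**
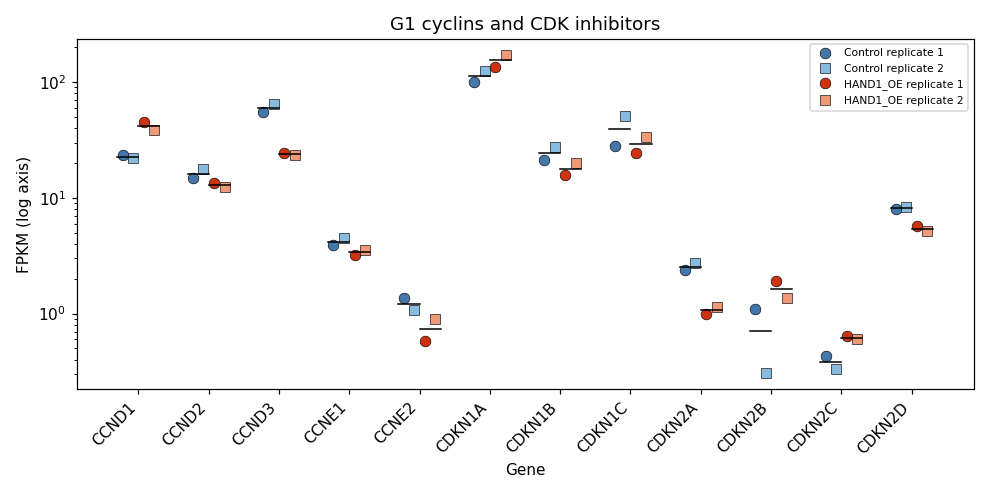
FPKM of the cyclins D and E and of the 7 CDK inhibitors in each library on a log axis (Control in blue, HAND1_OE in red; bars are group means of 2 libraries). CCND1 is higher and CCND3 lower in HAND1_OE, and the Control points of CDKN1C and CDKN2B lie far apart.

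In the RB and E2F families 3 of 5 genes were tested and 0 were called. An unadjusted p under 0.05 was reached by 1, which was lower, where 10.6% of all genes tested were lower at that level. E2F3, an activating E2F, was at 7.26 and 7.77 FPKM in Control and 5.60 and 4.96 FPKM in HAND1_OE (log2 fold change -0.44, 95% interval -0.85 to -0.027, adjusted p = 0.257). E2F1, also an activator, was at 4.53 and 4.20 FPKM in Control and 4.13 and 2.95 FPKM in HAND1_OE (-0.25, adjusted p = 0.626), where HAND1_OE replicate 1 lay close to the Control libraries. The RB1 gene, the pocket protein that holds E2F factors, was at 13.8 and 18.3 FPKM in Control and 12.8 and 17.1 FPKM in HAND1_OE, and its groups overlapped. The related RBL1 and the activator E2F2 were too low to test, with at most 1.17 and 0.156 FPKM.

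DNA replication genes were the group in which the libraries separated most often. Both HAND1_OE libraries lay below both Control libraries in 14 of 16 genes (87.5%), where 30.1% of all genes tested did so, GMNN lay higher and RRM1 overlapped. An unadjusted p under 0.05 was reached by 8 of the 16 genes (50.0%), all lower, where 10.6% of all genes tested reached it. After adjustment over all genes 0 of the 16 passed, and the lowest adjusted p was 0.0806. The median log2 fold change was -0.39, beside -0.078 over all genes tested. It was between -0.45 and -0.34 in each pairing of a HAND1_OE with a Control library, -0.33 after quantile normalization and -0.31 after median-ratio scaling, under which 12 and 13 of the 16 genes still lay lower without overlap.

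Before S phase the replicative helicase is loaded onto origins by ORC, CDC6 and CDT1, and CDC6 had the largest log2 fold change of the 16 genes. CDC6 (ENSG00000094804.9, chromosome 17, 40287633 to 40304657) was at 3.60 and 5.38 FPKM in Control and 1.79 and 1.14 FPKM in HAND1_OE. Its log2 fold change was -1.15 (standard error 0.255, 95% interval -1.78 to -0.51, adjusted p = 0.0806). With a library left out, this change ran from -1.38 to -0.91. The loading factor CDT1 (chromosome 16, 88803213 to 88809258) was at 8.48 and 7.46 FPKM in Control and 5.11 and 3.09 FPKM in HAND1_OE (-0.84, adjusted p = 0.151). Its inhibitor geminin (GMNN) was at 18.5 and 14.8 FPKM in Control and 23.5 and 21.4 FPKM in HAND1_OE (0.41, 95% interval -0.012 to 0.84, adjusted p = 0.302). Geminin was thus higher and CDT1 lower in both HAND1_OE libraries.

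The 6 subunits of the helicase itself, MCM2 to MCM7, all lay lower in both HAND1_OE libraries. MCM2 (ENSG00000073111.13, chromosome 3, 127598223 to 127622436) was at 12.3 and 12.1 FPKM in Control and 7.43 and 5.33 FPKM in HAND1_OE (-0.85, standard error 0.196, 95% interval -1.34 to -0.37, adjusted p = 0.0865). With a library left out, its log2 fold change ran from -1.06 to -0.65. MCM5 was at 19.5 and 16.7 FPKM in Control and 11.5 and 11.1 FPKM in HAND1_OE (-0.63, adjusted p = 0.106). MCM4 was at 26.0 and 22.3 against 17.2 and 14.1 FPKM (-0.60, adjusted p = 0.155). These subunits form a ring with a copy of each, but their RNA levels differed among themselves. MCM7 was the most abundant, at 57.8 and 46.2 FPKM in Control and 36.8 and 31.8 FPKM in HAND1_OE (-0.58, adjusted p = 0.168). MCM6 was the least abundant in Control, at 10.97 and 9.38 FPKM, and was at 7.60 and 7.94 FPKM in HAND1_OE (-0.35, adjusted p = 0.372). MCM3 was at 23.5 and 22.0 against 18.6 and 17.4 FPKM (-0.32, adjusted p = 0.345). The summed level of the subunits was 150 and 129 FPKM in Control and 99.0 and 87.8 FPKM in HAND1_OE, and MCM7 held 35.9% to 38.5% of it in all libraries.

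The remaining replication genes act at the fork, in nucleotide supply and on newly copied DNA. PCNA, the sliding clamp, was at 42.5 and 38.9 FPKM in Control and 31.4 and 29.04 FPKM in HAND1_OE (-0.42, 95% interval -0.78 to -0.056, adjusted p = 0.225). RRM2, the regulated subunit of ribonucleotide reductase, was at 11.9 and 12.8 FPKM in Control and 7.91 and 9.42 FPKM in HAND1_OE (-0.47, adjusted p = 0.234). The groups of its partner RRM1, which is not limited to S phase to the same degree, overlapped at 12.0 and 10.9 against 10.04 and 13.9 FPKM (0.048). Thymidylate synthase (TYMS) was at 47.7 and 44.5 against 43.7 and 38.8 FPKM (-0.16). The polymerase alpha gene POLA1 (-0.23), the GINS subunit GINS2 (-0.22) and UHRF1 (-0.37), which maintains DNA methylation after replication, also lay lower without passing. PCNA and RRM2 have 3 annotated pseudogenes each, and TYMS shares exon bases with ENOSF1 and TYMSOS, so their values are less certain than those of the MCM genes without such neighbours (MCM3, MCM4, MCM5 and MCM6).

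GMNN and RRM1, the replication genes that did not lie lower, held no E2F motif in the window searched. The 11 replication promoters with the motif, among them those of MCM6 and CDT1 printed above, belonged to genes that all lay lower in both HAND1_OE libraries. The 3 searched promoters without it were those of GMNN, RRM1 and RRM2, of which only RRM2 lay lower. For GMNN and RRM2 only the first of 2 listed windows was searched. MCM4 and MCM5, which lay lower, had no window. Carriers of the motif outside the replication group lay on either side. E2F1 and E2F3 lay lower, E2F2, CENPA and NUSAP1 lay higher, and RBL1 and CDK1 overlapped. E2F2 and RBL1 were too low to test. The pattern among replication genes was seen after the values were known and is a description of 14 promoters.

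**Figure D3:**
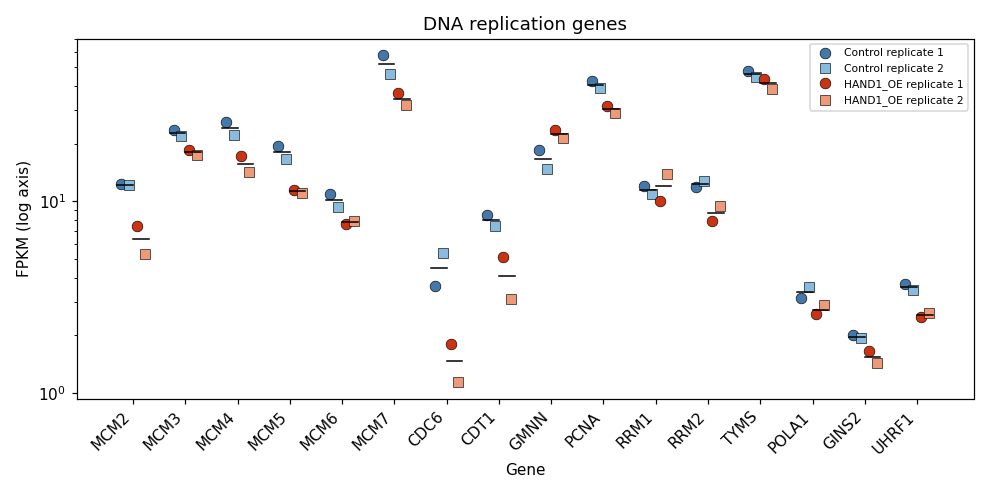
FPKM of the 16 DNA replication genes in each library on a log axis (Control in blue, HAND1_OE in red; bars are group means of 2 libraries). The HAND1_OE points lie below the Control points for all genes but GMNN, which lies above, and RRM1, which overlaps.

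Mitosis genes did not separate the groups. Of 24 genes, all tested, 0 were called by limma and 0 had an unadjusted p under 0.05, and the lowest adjusted p was 0.401. Both HAND1_OE libraries lay lower in 2 genes (8.33%, against 30.1% of all genes tested) and higher in 3 (12.5%, against 16.2%), and the groups overlapped in 19. The median log2 fold change was 0.0043. All 24 intervals included 0, with a median half-width of 0.53 on the log2 scale before any correction for the number of genes.

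The proliferation marker MKI67 was at 5.31 and 4.45 FPKM in Control and 6.47 and 6.41 FPKM in HAND1_OE, higher in both libraries (log2 fold change 0.34, 95% interval -0.087 to 0.77, adjusted p = 0.401). TOP2A, the topoisomerase that untangles sister DNA, was at 12.9 and 11.8 FPKM in Control and 17.8 and 12.6 FPKM in HAND1_OE (0.26, adjusted p = 0.618), with overlapping groups. Cyclin B1 (CCNB1), the partner of CDK1 at entry into mitosis, was at 31.0 and 27.2 FPKM in Control and 34.8 and 23.8 FPKM in HAND1_OE. Its log2 fold change was -0.013 (95% interval -0.55 to 0.53, adjusted p = 0.987), and it was 0.078 after median-ratio scaling. CDK1 itself was at 18.9 and 21.8 FPKM in Control and 22.6 and 18.9 FPKM in HAND1_OE (0.022). CENPF, a kinetochore protein, was at 10.4 and 12.6 FPKM in Control and 11.7 and 6.71 FPKM in HAND1_OE (-0.33, adjusted p = 0.630), and without HAND1_OE replicate 2 its log2 fold change was 0.025. Cyclin A2 (CCNA2), which acts in both S phase and G2, was among the genes that lay lower, at 9.95 and 9.66 against 8.57 and 6.72 FPKM (-0.33, adjusted p = 0.441), with AURKA (-0.11). NUSAP1 (0.26) and CENPA (0.13) lay higher together with MKI67.

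The libraries of each group differed from each other in mitosis genes. HAND1_OE replicate 1 was above HAND1_OE replicate 2 in 22 of 24 genes, and Control replicate 1 above Control replicate 2 in 17. In 17 of 24 genes (70.8%) replicate 1 exceeded replicate 2 in both groups, where 36.8% of all genes tested did so. The replication genes shared this order, in 10 of 16 genes (62.5%). CDC20, which activates the anaphase-promoting complex, was at 28.2 and 16.9 FPKM in Control and 27.2 and 13.4 FPKM in HAND1_OE. PTTG1 (securin) was at 53.9 and 40.7 FPKM in Control and 67.3 and 37.4 FPKM in HAND1_OE. Both were thus at their highest in replicate 1 of either group. The kinase PLK1 was at 20.2 and 15.9 FPKM in Control and 23.3 and 13.1 FPKM in HAND1_OE. The median difference from the Control mean was 0.21 for HAND1_OE replicate 1 and -0.21 for HAND1_OE replicate 2, so the sign of the mitosis group depends on which HAND1_OE library is used. For the replication genes the same medians were -0.38 and -0.36. HAND1_OE replicate 1 lay below both Control libraries in 15 of 16 replication genes and in 2 of 24 mitosis genes, and HAND1_OE replicate 2 in 14 of 16 and 16 of 24. The difference between the replication and mitosis groups was not tested.

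**Figure D4:**
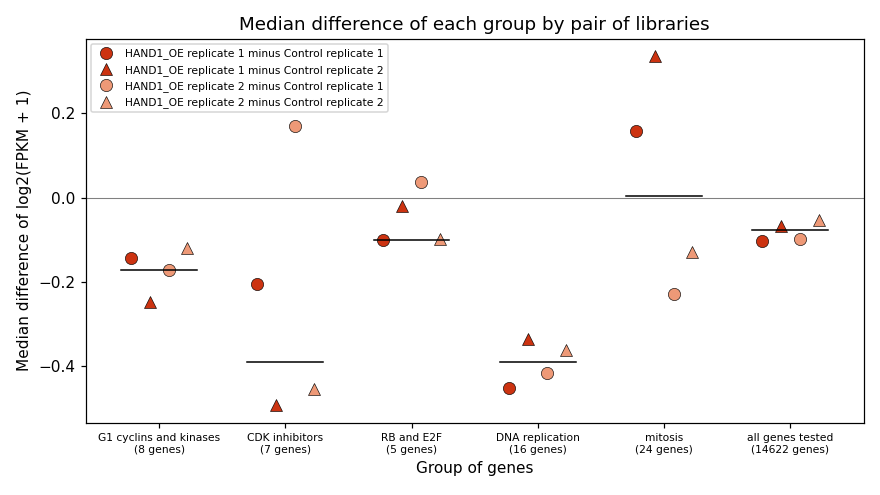
Median difference of log2(FPKM + 1) between each HAND1_OE and each Control library for each role group and for all genes tested (bars are the median log2 fold changes of group means). The 4 medians of the replication group lie between -0.45 and -0.34, whereas those of the mitosis group run from -0.23 to 0.34 and change sign with the HAND1_OE library.

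Other genes of the same pathways were examined with lists written from general knowledge. Earlier results of these data were known when the lists were written, so they are not an independent check. Of 43 other DNA replication genes (ORC, GINS, polymerase, RFC and RPA subunits among them), limma called 0. An unadjusted p under 0.05 was reached by 1 of them, which was lower (2.33%, against 10.6% of all genes tested). In 23 of the 43 (53.5%, against 30.1% of all genes tested) both HAND1_OE libraries lay lower, and the median log2 fold change was -0.22. Of 52 other mitosis genes 0 were called and 3 had an unadjusted p under 0.05, all lower (5.77%, against 10.6% of all genes tested). Both HAND1_OE libraries lay lower in 14 of them (26.9%), with a median of -0.041. Of 17 S and G2 checkpoint genes 0 were called, with a median of -0.16. An unadjusted p under 0.05 was reached by 2 of these genes, both lower (11.8%, near the 10.6% of all genes tested). Of 22 p53 targets, which share their regulator with CDKN1A, 0 were called. At an unadjusted p under 0.05 were 3 of them, all lower (13.6%, near the 10.6% of all genes tested). The groups overlapped in 16 of these targets, 6 lay lower in both HAND1_OE libraries (27.3%, against 30.1% of all genes tested) and 0 lay higher, with a median of -0.053.

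Among 27 other G1 and E2F regulators 1 gene was called, and 8 had an unadjusted p under 0.05 (29.6%, against 10.6% of all genes tested lower), all lower. MYCN (ENSG00000134323.11, chromosome 2, 15940564 to 15947007), a MYC family factor that drives growth and cell cycle entry, was at 18.6 and 16.6 FPKM in Control and 2.87 and 3.54 FPKM in HAND1_OE. It fell by 2.15 on the log2 scale (standard error 0.175, 95% interval -2.58 to -1.71, adjusted p = 0.0073), to a mean 5.49 times lower than in Control. MYC was at 27.1 and 36.2 FPKM in Control and 22.4 and 19.2 FPKM in HAND1_OE (adjusted p = 0.213), lower in both libraries without passing. TFDP2, a dimerization partner of E2F factors, was at 20.1 and 24.7 against 9.97 and 13.1 FPKM (adjusted p = 0.0768), also lower without passing. The same 8 genes included the anti-proliferative gene BTG2 (log2 fold change -1.02), with TOB1 (-0.79), E2F8 (-0.76), E2F5 (-0.47) and BTG1 (-0.45), none of them called. BTG2, TOB1 and E2F8 thus changed more than MYC (-0.58), and the genes that were lower were not only drivers of the cell cycle. MYC and TFDP2 are examples picked with the values known and do not stand for the list.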

How the data were processed

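RNA was measured in 2 Control and 2 HAND1_OE libraries of CD31+ cells, grouped by sample title. The authors deposited a table with a value per gene and library, read here as FPKM, which labels an axis of the study's own plot of these groups, since the table names no unit. The submitters' processing notes name BWA, Bowtie, RSEM and hg19, but 56550 of 58229 genes kept have the coordinates of GENCODE release 29 on GRCh38; versions and scaling between libraries are not given in the sources used here. Of 58365 rows, 45 Y copies and 91 repeated gene IDs were left out.

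Values were compared as log2(FPKM + 1), for genes that reached 1 FPKM in 2 or more libraries, using a two-sided limma test with a mean-variance trend (limma version 3.58.1 in R version 4.3.3), adjusted by Benjamini-Hochberg over 14622 genes. All p-values are from this test. It was also run on simulated libraries drawn independently, which lack the correlation of replicate differences given below. The p-values set each difference against the spread between these libraries, which limma moderates with that of all genes tested. That spread may be technical, as no label states separate cultures. FPKM holds no counts, so no counting interval is given. Relative depth was taken from the most common ratio between libraries in genes with a single exon.

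The members and lists were chosen with earlier results of these data known. Named with values in every library were members with an adjusted p under 0.05, the 2 largest changes of each role group at a mean of at least 1 FPKM, and 15 members fixed by name. Other members are shown as examples chosen after their values were seen. Alternatives were another pseudocount, filter, scaling and variance model, the replicate number as a block, and each library left out.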

Additional observations from a re-analysis of the deposited data

How the results depend on the processing

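Of the calls among the members, that of CCND1 depended on the settings. CCND1 did not pass, leaving 0 members higher, with a pseudocount of 0.1, with no filter on low values, without the limma trend, or when a change of 2-fold or more was also required, and 0 to 1 were higher when a library was left out (1 only without HAND1_OE replicate 2). CCND3 passed in all alternatives but the test of every gene above 0, where 0 members were lower (13 at an unadjusted p under 0.05 and 1 higher). With a library left out 1 to 4 members were lower, the 4 without HAND1_OE replicate 1 being CCND3, CDC6, CDT1 and MCM2. In that unfiltered test of 29860 genes 0 genes were higher and 0 lower (1458 and 2352 at an unadjusted p under 0.05), 0 other G1 and E2F regulators were called, and HAND1 had an adjusted p of 0.153 at a log2 fold change of 5.20.

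With the replicate number as a block 2 members were higher (CCND1 and CDKN1A) and 5 lower (CCND3, MCM2, MCM4, MCM5 and MCM7), with 597 genes higher and 712 lower over all genes, 4 called among other G1 and E2F regulators (MYCN, TFDP2, TOB1 and BTG2) and 3 among p53 targets (BTG2, BBC3 and PMAIP1). Replicate differences correlated between the groups (r = 0.38 over 14622 genes), but the labels tie the numbers to nothing shared, so the block is only an alternative. With a library left out, 0 to 1 other replication genes, 1 to 3 other G1 and E2F regulators and 0 to 1 p53 targets were called.

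Group medians moved with scaling. The G1 cyclins and kinases had -0.20 with a pseudocount of 0.1, -0.11 with 1 FPKM in every library, -0.11 after quantile normalization and -0.090 after median-ratio scaling; replication genes had -0.45 with a pseudocount of 0.1, -0.33 after quantile normalization and -0.31 after median-ratio scaling. The RB and E2F median was -0.25 with 1 FPKM in every library and -0.012 after median-ratio scaling. Over single libraries left out, medians ran from -0.21 to 0.092 for RB and E2F, from -0.55 to 0.028 for the inhibitors and from -0.21 to 0.21 for mitosis genes. Mitosis genes lower without overlap numbered 1 after quantile normalization and 1 after median-ratio scaling, and 2 to 16 with a library left out (16 without HAND1_OE replicate 1). CCNB1 changed sign after quantile normalization (0.020) and median-ratio scaling (0.078) and ran from -0.28 to 0.25 with a library left out, CDKN1C from -0.81 to 0.028, and CENPF from -0.69 to 0.025.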

Other observations

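The ratio of geminin to CDT1 RNA, formed after both values were seen, was 2.18 and 1.99 in the Control libraries and 4.60 and 6.93 in the HAND1_OE libraries, as FPKM over FPKM. Geminin binds CDT1 to prevent a repeat of origin licensing, and cells that have left G1 hold geminin protein but little CDT1. RNA levels do not measure either protein, and no test was run on this ratio.

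The anti-proliferative gene BTG2 is on both the p53 target list and the list of G1 and E2F regulators. It was at 54.6 and 92.2 FPKM in Control and 25.5 and 46.9 FPKM in HAND1_OE (limma adjusted p = 0.236). The p53 target BBC3 was at 23.4 and 25.8 against 13.2 and 14.4 FPKM (limma adjusted p = 0.0533). Both were chosen after their values were seen.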
